A study of Lactuca sativa with 24 samples.

Results

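Leaves of the lettuce variety Luna bionda that had received UVB for 7.5 h per day over 6 days were compared with leaves of the same variety kept under visible light alone. The members are the 6 libraries that the sample titles place in these groups, 3 with UVB 7.5 h (0.4 W per square metre) and 3 of day 6 visible light, out of 24 libraries of the series. All were polyA RNA libraries of leaves of wild type plants, sequenced in read pairs after amplification of the cDNA. The remaining Luna bionda groups, UVB for 2.5 h per day over 6 days and day 0, held 3 libraries each and are used here only for levels set side by side. Whether replicate libraries were made from different plants is not in the labels, and the tests therefore take only the scatter of these libraries into account, part of which may be technical.

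UVB is sensed in plants by the photoreceptor UVR8, whose dimer falls apart into monomers on activation and binds the ubiquitin ligase COP1, so that the transcription factor HY5 accumulates. HY5 then raises transcription of genes of flavonoid synthesis, DNA photorepair and photoprotection, and strong UVB in addition sets off general stress and wound signalling. In lettuce leaves UV light is known for raising phenolic compounds and flavonoids. The gene table used for names gives the genes here as locus identifiers with a biotype and no product name, so that the lists of UVR8 signalling, phenylpropanoid, DNA repair, photoprotection, antioxidant and stress genes could not be filled. No function is therefore given below for a nuclear gene.

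The 6 libraries were of 2 kinds. UVB replicates 2 and 3 held 26313831 and 31409866 reads in genes, and the visible light libraries held 29653670, 43276819 and 32225060. UVB replicate 1 held 898111 reads, so that a single read in it was worth 1.11 CPM (counts per gene scaled to the total of reads in genes), against 0.0231 to 0.038 CPM in the other 5. It was also the only 1 of the 6 whose batch tag in the labels is of the lower number range, called the lower tag series here. Among these 6 libraries shallow depth, tag series and this library cannot be told apart, and results are given with and without it. Outside the 6, UVB 2.5 h replicates 1 to 3 and day 0 replicate 2 were also of the lower tag series. They held 12072410 to 29545956 reads in genes, with 0.00192% to 0.0078% of them in plastid genes. The part of tag series in the values of UVB 7.5 h replicate 1 was not tested.

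UVB replicate 1 also differed in the kinds of RNA it held. Plastid genes took 6.53% of its reads (95% Wilson interval 6.48% to 6.58%), against 0.00194% to 0.00342% in UVB replicates 2 and 3 and 0.000758% to 0.00331% in visible light. Mitochondrial genes took 2.78% (2.75% to 2.82%), against at most 0.0017% in the other UVB libraries and 0.00273% in visible light. The small nuclear RNA genes, whose products act in splicing, took 5.30% (5.25% to 5.35%), against at most 0.0271% and 0.0193%. Nuclear protein-coding genes took 70.2% (70.1% to 70.3%) of its reads, against 95.2% to 97.1% in UVB replicates 2 and 3 and 96.4% to 97.6% in visible light. These intervals cover counting error only. Of the 10 genes with the highest CPM in UVB replicate 1, 9 were not nuclear protein-coding genes, and 1, LOC111902831, was also among the 10 highest of the other 5 libraries.

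**Figure D1:**
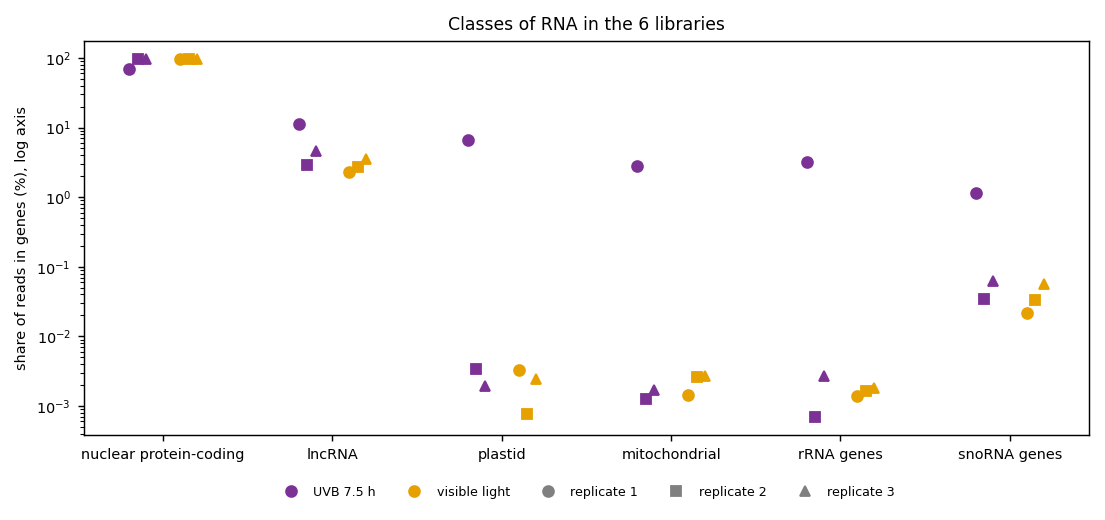
Share of the reads in genes (percent, log axis) taken by 6 classes of RNA, with each library as a point, UVB 7.5 h on the left (purple) and visible light on the right (orange) of each class. The circle on the left, UVB replicate 1, stands at 6.53% for plastid genes, where the highest of the other 5 libraries is at 0.00342%.

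The deposited table that holds these 6 libraries carries the names of UVB and of day 0, not of visible light, and the authors' deposited table of fold changes divides its columns in another way than the titles do. Across 20233 genes, the log2 fold changes of the authors' deposited table correlated at 0.993 with the ratio of visible light replicates 2 and 3 and UVB replicate 1 to visible light replicate 1 and UVB replicates 2 and 3. With the ratio of the groups as labelled the correlation was 0.658. The 71 genes with an adjusted p under 0.05 in the authors' deposited table included 59 whose highest CPM was in UVB replicate 1, and are not used as a result on UVB. The sample titles set the groups here. Which of titles and table names is right could not be settled from the files.

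With all 6 libraries, no gene passed the test between UVB 7.5 h and visible light. By limma 0 of 20359 genes (0%) had an adjusted p under 0.05 (the smallest was 0.966). An unadjusted p under 0.05 was reached by 220 genes (1.08%), of which 58 were higher (0.285%) and 162 lower (0.796%) with UVB. With UVB replicate 1 left out the count was again 0 of 19833 genes (smallest adjusted p 0.756), and 775 genes (3.91%) were under the unadjusted p, 160 higher (0.807%) and 615 lower (3.1%). The direction of these unadjusted counts depended on the scaling and the test. With median-of-ratios scaling 137 genes were higher and 36 lower with all 6 libraries, and 485 higher and 257 lower without UVB replicate 1. The edgeR quasi-likelihood test called 0 genes in both sets, and under the unadjusted p it had 564 genes higher and 29 lower with 6 libraries and 601 higher and 310 lower with 5. DESeq2 called 34 and 15 genes, which are described further on.

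The precision of the comparison limited what could be seen. The standard error of the log2 fold changes had a median of 0.58 with all 6 libraries and 0.42 without UVB replicate 1. The 95% interval of the fold change lay wholly within 2-fold in either direction for 214 genes (1.05%) with all libraries and for 2484 genes (12.5%) without replicate 1. For the other genes a change of 2-fold in at least 1 direction was not excluded by the interval. Within groups, the median SD of log2(CPM + 1) over genes was 0.82 among the 3 UVB libraries and 0.30 between UVB replicates 2 and 3, and it was 0.42 among the visible light libraries. In bulk leaf RNA, fewer cells of a type and less RNA per cell cannot be told apart.

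The libraries did not separate by light. Across the genes tested, the Spearman correlation between the 5 deep libraries was 0.886 to 0.946 within a group and 0.877 to 0.963 between the groups. UVB replicate 2 had its closest partner of the other 5 in visible light replicate 2 (0.963), with 0.910 to its own group's replicate 3. Among all Luna bionda libraries its closest was UVB 2.5 h replicate 1 (0.966). Correlations of UVB 7.5 h replicate 1 with the other 5 were 0.582 to 0.660. Its closest of all Luna bionda libraries was UVB 2.5 h replicate 3 (0.708). Genes are not independent replicates, so these values are given as a description.

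Over all genes the log2 fold change had a median of -0.23 with CPM, and this depended on the scaling. With median-of-ratios size factors it was -0.04. The groups did not overlap in 1859 genes (9.13%) with CPM, 229 higher (1.12%) and 1630 lower (8.01%) with UVB, so that 12.3% of them were higher. With median-of-ratios scaling 537 were higher and 685 lower, and 43.9% were higher. The limma fold changes with CPM below are to be read against the median of -0.23. Those of DESeq2, which scales otherwise and adds no pseudocount, had a median of 0.07 with 6 libraries and -0.01 with 5.

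**Figure D2:**
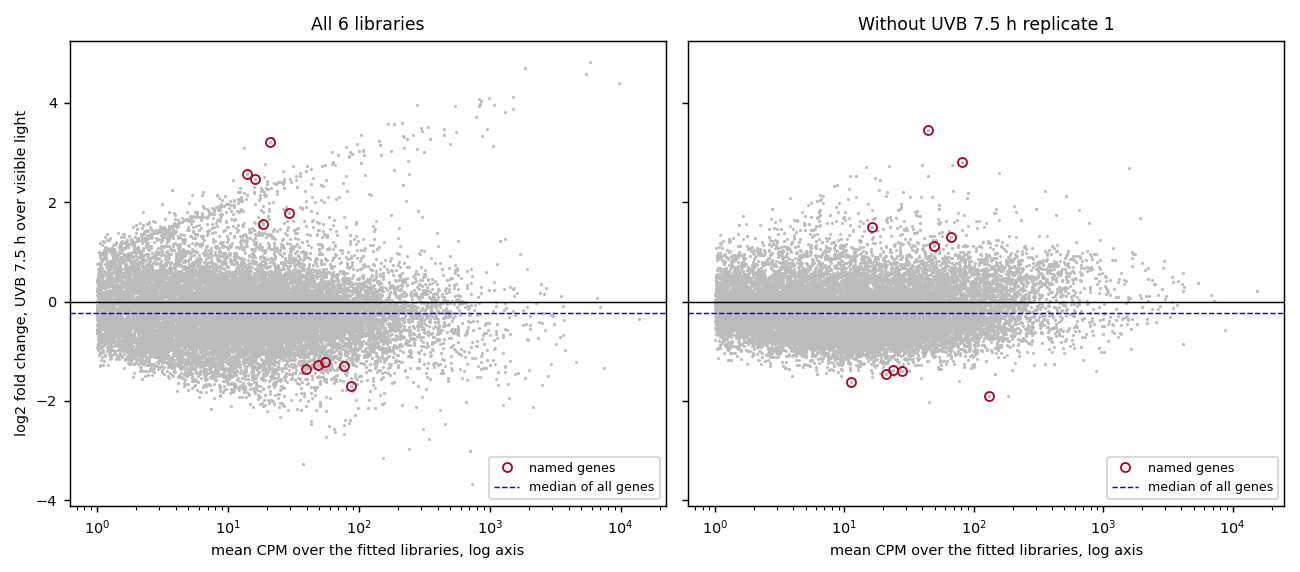
Log2 fold change of UVB 7.5 h over visible light (vertical axis) against mean CPM (log axis) for each gene tested, with all 6 libraries on the left and without UVB replicate 1 on the right. Open circles are the genes named in the text and the dashed line is the median of all genes, at -0.23 in both panels. The band of points that climbs to the upper right on the left panel is absent on the right panel.

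Among genes with a mean of at least 10 CPM and no overlap between the groups, the 5 with the smallest p that were higher with UVB 7.5 h were 4 protein-coding genes and 1 long noncoding RNA. None passed the correction, and the limma adjusted p was 0.966 for each. LOC111914174 had 30.1, 20.8 and 33.7 CPM in UVB replicates 1 to 3, against 7.49, 9.80 and 9.09 CPM in visible light. Its 3 UVB libraries all lay well above the highest visible light library, and the log2 fold change was 1.56 (SE 0.42, 95% interval 0.60 to 2.51). The value in the shallow library rests on 27 reads.

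LOC111912253 had 51.2, 5.47 and 19.9 CPM with UVB, against 2.53, 2.68 and 1.64 CPM in visible light, a log2 fold change of 2.56 (SE 0.74). The UVB libraries were spread over a wide range, with the shallow library highest. LOC111916789 had the same order, with 57.9, 6.92 and 21.9 CPM against 4.79, 2.91 and 1.86 CPM and a log2 fold change of 2.46 (SE 0.74). LOC111896333 had 51.2, 34.7 and 49.7 CPM with UVB, against 15.5, 20.1 and 5.77 CPM in visible light, a log2 fold change of 1.78 (SE 0.52), and here the spread lay mainly in visible light.

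The long noncoding RNA LOC111918521 had 52.3, 4.52 and 61.5 CPM with UVB, against 1.69, 4.51 and 0.56 CPM in visible light. Its log2 fold change of 3.21 (SE 0.95) was the highest of the 5. The groups were parted only narrowly, since UVB replicate 2 stood beside visible light replicate 2. Since the 5 were chosen for no overlap, their direction could not change when UVB replicate 1 was left out. The log2 fold changes were then 1.84 for LOC111912253, 1.68 for LOC111896333, 2.71 for LOC111918521 and 1.75 for LOC111916789. That of LOC111914174 was smaller than these 4. The limma adjusted p was 0.756 for each of the 5.

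The 5 genes that were lower with UVB 7.5 h by the same rule were all protein-coding, and none passed the correction either (limma adjusted p = 0.966 for each). LOC111881580 had 23.4, 49.9 and 52.7 CPM with UVB, against 174, 100.2 and 127 CPM in visible light, a log2 fold change of -1.70 (SE 0.47, 95% interval -2.77 to -0.62). LOC111885737 had 16.7, 30.7 and 18.1 CPM with UVB, against 70.1, 57.7 and 42.2 CPM, a log2 fold change of -1.36 (SE 0.43). In both, the shallow library was the lowest of the 6, with 21 and 15 reads.

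LOC111898767 had 24.5, 44.2 and 31.2 CPM with UVB, against 83.8, 64.1 and 83.5 CPM in visible light, a log2 fold change of -1.22 (SE 0.41). LOC111902919 had 22.3, 43.2 and 21.9 CPM with UVB, against 76.2, 59.7 and 70.3 CPM, a log2 fold change of -1.28 (SE 0.43). LOC111919727 had 43.4, 51.8 and 34.4 CPM with UVB, against 159, 103 and 74.4 CPM, a log2 fold change of -1.31 (SE 0.44). In these 3 genes UVB replicate 2 was the highest UVB library and lay below every visible light library. When UVB replicate 1 was left out, the 5 log2 fold changes lay between -1.33 and -1.03, again with a limma adjusted p of 0.756.

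**Figure D3:**
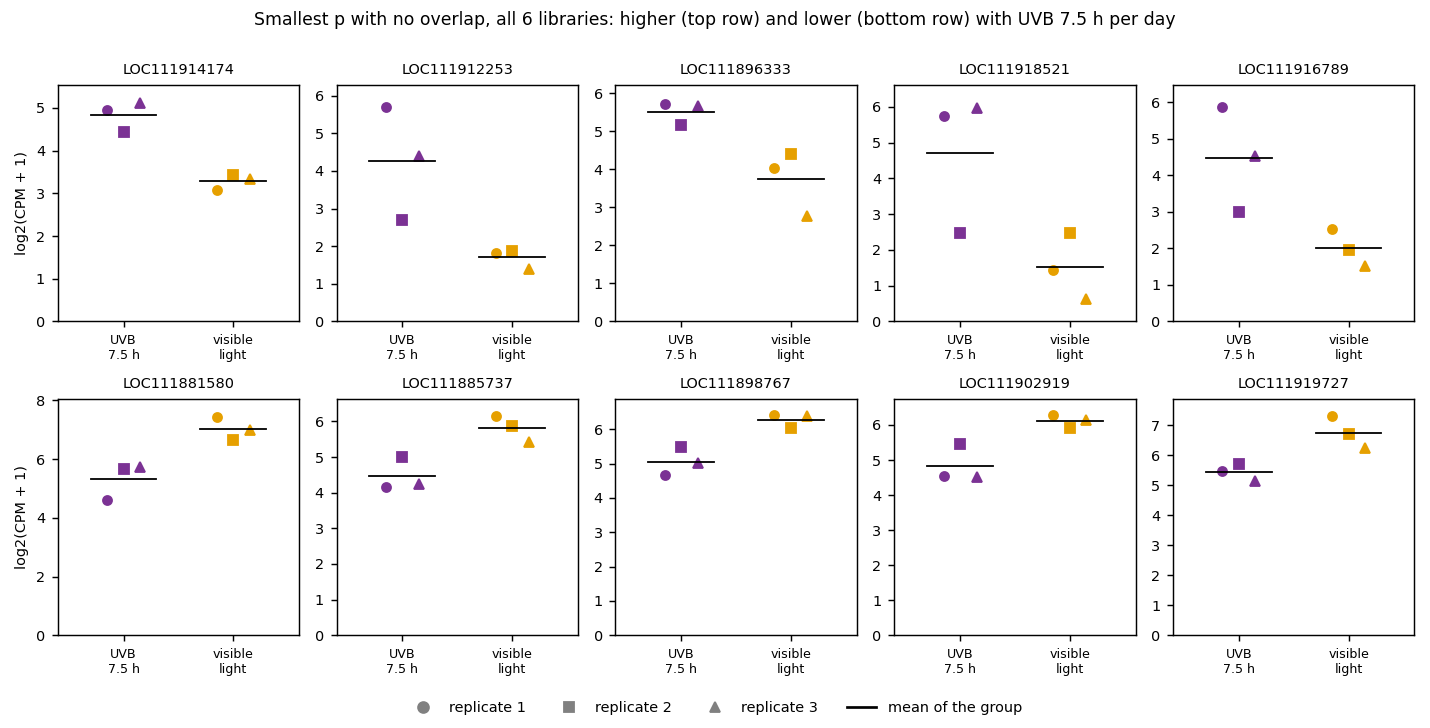
Levels as log2(CPM + 1) of the 10 genes with the smallest p and no overlap in the 6 libraries, 5 higher in the top row and 5 lower in the bottom row, with UVB 7.5 h on the left and visible light on the right of each panel. Points are libraries and the line is the group mean. LOC111914174 shows the tightest groups of the top row, at 20.8 to 33.7 CPM with UVB and 7.49 to 9.80 CPM in visible light.

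The other Luna bionda libraries gave the levels of these genes at day 0 and with UVB for 2.5 h per day. No test was made, since the comparisons share the visible light libraries. The genes were chosen for no overlap between UVB 7.5 h and visible light, so only the day 0 and 2.5 h levels are new here. LOC111914174 had 6.25, 17.0 and 10.4 CPM at day 0, 21.4, 43.7 and 84.6 CPM with UVB 2.5 h, and the 20.8 to 33.7 CPM given above with UVB 7.5 h. All 6 libraries with UVB thus stood above all 6 without it. LOC111902919 had 61.9, 59.6 and 56.6 CPM at day 0 and 24.7, 6.49 and 32.3 CPM with UVB 2.5 h, and the 6 libraries with UVB stood below the 6 without.

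LOC111885737 and LOC111881580 were parted in the same way, at 30.7 CPM or less and 63.6 CPM or less in the libraries with UVB, against at least 39.8 and 80.5 CPM in those without it. Of all 20359 genes, 26 (0.128%) stood above in this way and 306 (1.5%) below with CPM, and 68 (0.334%) and 81 (0.398%) with median-of-ratios scaling. LOC111898767 was parted narrowly and with CPM alone, at 44.2 CPM or less with UVB, against at least 45.6 CPM without. For LOC111919727 the groups overlapped, with 59.7 CPM in UVB 2.5 h replicate 1, against 59.4 CPM in day 0 replicate 1. For LOC111912253 the 2.5 h libraries were far apart, with 2.70 CPM in replicate 1 and 130 and 113 CPM in replicates 2 and 3. LOC111916789 had 1.88, 26.8 and 30.3 CPM and LOC111896333 10.8, 149 and 75.3 CPM with UVB 2.5 h. In these 3 genes UVB 2.5 h replicate 1 stood near visible light and the other 2 replicates far above it. LOC111918521 had 0.35, 15.8 and 15.8 CPM with UVB 2.5 h. In it and these 3 genes, libraries with and without UVB overlapped. Day 0 replicate 2 had 6.21 CPM of LOC111912253, 11.1 of LOC111916789, 36.6 of LOC111896333 and 43.2 of LOC111918521. UVB 7.5 h replicate 2 stood lower in each, at 5.47, 6.92, 34.7 and 4.52 CPM. All 3 libraries at 2.5 h were of the lower tag series, as was UVB 7.5 h replicate 1, and the part of tag series in these levels was not tested.

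**Figure D4:**
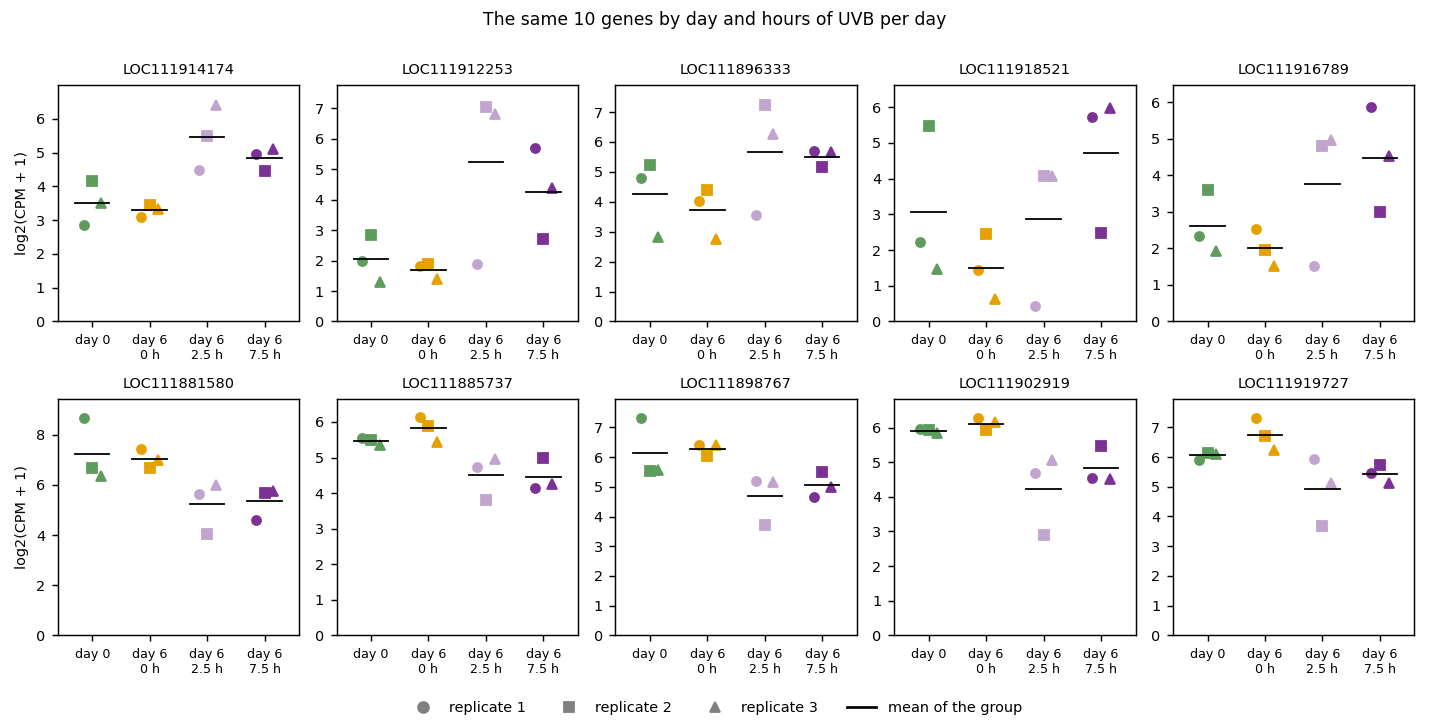
Levels as log2(CPM + 1) of the same 10 genes in the 12 Luna bionda libraries, ordered as day 0, then day 6 with 0 h, 2.5 h and 7.5 h of UVB per day. Points are libraries and the line is the group mean. For LOC111914174 all UVB libraries are at 20.8 CPM or more and all others at 17.0 CPM or less, and for LOC111912253 UVB 2.5 h replicate 1 (circle) is at 2.70 CPM.

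Between the 5 deep libraries, the groups of 2 and 3 deep libraries did not overlap in 4985 of 19833 genes (25.1%), 1014 higher (5.11%) and 3971 lower (20%) with UVB. With median-of-ratios scaling 2152 were higher and 2257 lower. The 5 higher genes with the smallest p then were LOC111914072, LOC111914174, LOC111879513, LOC111875850 and LOC111878111, all protein-coding, with a limma adjusted p of 0.756 each. LOC111914072 had 48.6 and 309 CPM in UVB replicates 2 and 3, against 18.3, 16.2 and 15.9 CPM in visible light, a log2 fold change of 2.80 (SE 0.65). The left-out UVB replicate 1 had 0 reads of it, which allows up to 3.34 CPM at a floor of 3 reads. With that library the log2 fold change was 0.49. With UVB replicates 1 and 3 both left out, so that UVB replicate 2 stood alone, it was 1.48.

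LOC111875850 had 100.1 and 106 CPM in UVB replicates 2 and 3, against 59.6, 41.6 and 28.1 CPM in visible light, a log2 fold change of 1.30 (SE 0.38). With UVB 2.5 h it had 129, 4.31 and 2.81 CPM. Its neighbour in the RefSeq gene order, LOC111875849, had a log2 fold change of 1.13 in the same fit and -0.15 with all 6 libraries. UVB replicate 1 went the other way for LOC111875850, at 15.6 CPM, which is below the lowest visible light library, and with it the log2 fold change was 0.42. LOC111878111 had 63.7 and 83.4 CPM against 29.4, 38.7 and 31.5 CPM, a log2 fold change of 1.12 (SE 0.33), and UVB replicate 1 lay above visible light as well, at 51.2 CPM. LOC111879513 had 67.9 and 115 CPM against 10.6, 26.0 and 0.74 CPM, with 2 reads (2.23 CPM) in UVB replicate 1. Its log2 fold change was 3.45 without that library and 1.85 with it.

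The 5 lower genes without UVB replicate 1 were LOC111910316, LOC111880510, LOC111886919, LOC111881860 and LOC111895123. LOC111910316 had 64.7 and 35.1 CPM in UVB replicates 2 and 3, against 245, 156 and 154 CPM in visible light, which gave a log2 fold change of -1.90 with an SE of 0.40 (limma adjusted p = 0.756). In UVB replicate 1 it stood at 903 CPM, the highest of the 6, and with that library the log2 fold change was -0.50. At UVB 2.5 h it had 31.7 CPM in replicate 1 and 655 and 767 CPM in replicates 2 and 3.

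LOC111886919, LOC111881860 and LOC111895123 had the same feature, with 252, 61.2 and 73.5 CPM in UVB replicate 1 and at most 14.6, 11.6 and 11.4 CPM in the other UVB libraries. Their visible light libraries lay at 29.9 to 43.2, 23.6 to 37.3 and 21.2 to 36.2 CPM. With UVB replicate 1 their log2 fold changes were -0.03, -0.60 and -0.52. LOC111880510 was the exception, with 11.1, 4.98 and 3.95 CPM in the 3 UVB libraries, against 15.7, 16.4 and 15.1 CPM in visible light. Its groups thus did not overlap with any library kept (log2 fold change -1.62, SE 0.36, without replicate 1). At UVB 2.5 h, replicates 1 to 3 had 19.9, 135 and 76.6 CPM of LOC111886919 and 8.81, 125 and 123 CPM of LOC111881860. For LOC111895123 they had 15.4, 22.4 and 18.4 CPM. Day 0 replicate 1, without UVB, had 120 CPM of LOC111886919 and 130 CPM of LOC111881860.

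**Figure D5:**
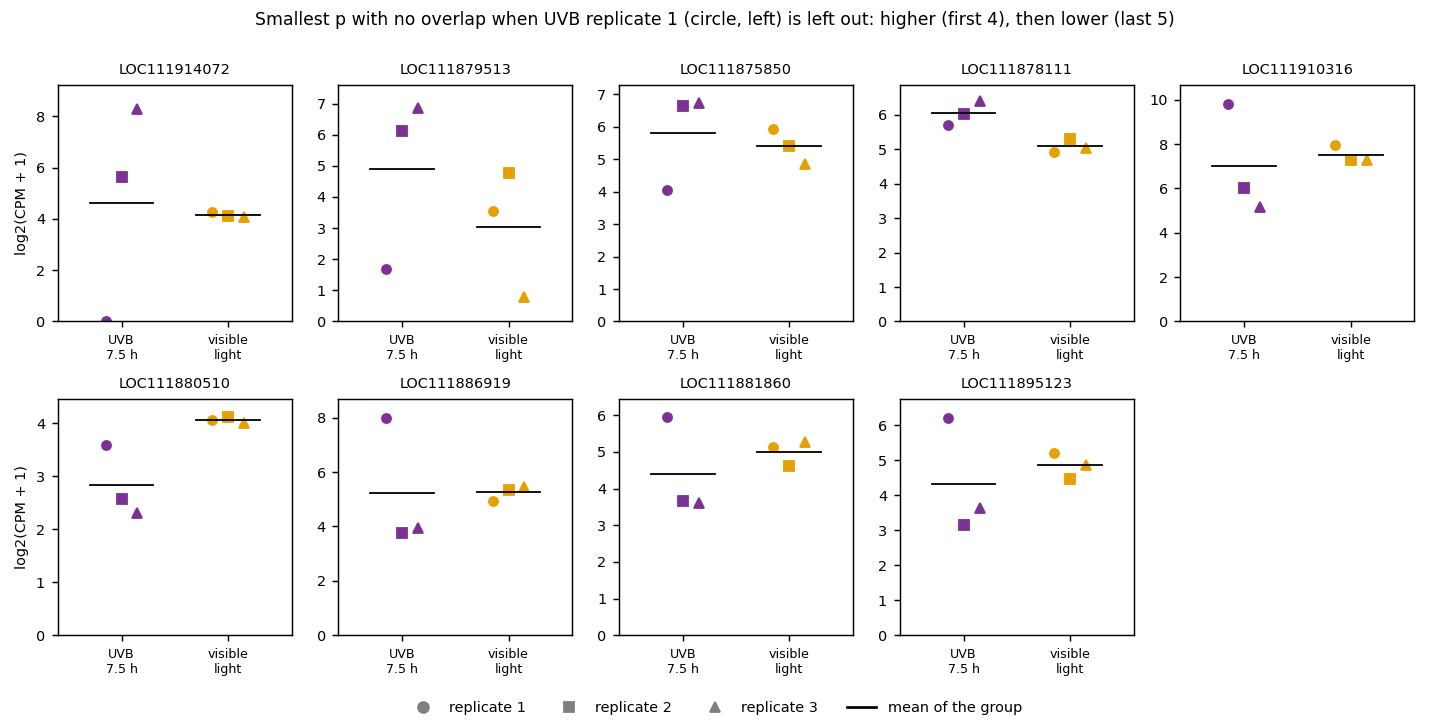
Levels as log2(CPM + 1) of the 9 further genes with the smallest p when UVB 7.5 h replicate 1 is left out, the first 4 higher and the last 5 lower with UVB, which stands on the left of each panel. Points are libraries, the line is the mean of the 3 libraries, and the circle on the left is UVB replicate 1. For LOC111910316 that circle is at 903 CPM while the other UVB libraries are at 64.7 and 35.1 CPM.

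Plastid and mitochondrial genes could be compared only with UVB replicate 1 left out. These genes encode parts of the photosystems, the respiratory complexes and the ribosomes of the organelles. Of 109 plastid genes 42 reached a mean of 1 CPM with all 6 libraries, but 5 did so without UVB replicate 1, and of 57 mitochondrial genes 40 and 4 did so. No deep library held more than 16.9 CPM of any plastid gene or 16.0 CPM of any mitochondrial gene. The levels with all libraries are thus those of a single library. The leaf markers rbcL, psaA and psbD, for the large subunit of Rubisco, a core protein of photosystem I and the D2 protein of photosystem II, had 0 reads in all 5 deep libraries. The plastid markers therefore do not check the tissue label in these polyA libraries.

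psbA, for the D1 protein of photosystem II, had 34990, 16.9 and 5.28 CPM in UVB replicates 1 to 3, against 15.2, 0.42 and 6.55 CPM in visible light. Without replicate 1 its groups overlapped, with a log2 fold change of 0.93 (SE 0.92). Cytochrome b6 (petB) and the photosystem I subunit psaC likewise overlapped without it, with -0.37 (SE 0.46) and 0.13 (SE 0.41), as did atp9 of the mitochondrial ATP synthase with -0.05 (SE 0.41). None of the 9 organelle genes tested then was under an unadjusted p of 0.05.

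Among nuclear classes, long noncoding RNAs had a median log2 fold change of -0.23 over 1513 genes with all 6 libraries and 0.09 over 1521 without UVB replicate 1, where the median of all genes was -0.23. Without replicate 1, 23 of them were under an unadjusted p of 0.05 and higher, and 5 lower (1.84% in all, where it was 3.91% of all genes). With median-of-ratios scaling 56 were higher and 3 lower (3.87%, where it was 3.74% of all genes), and their median was 0.29, where that of all genes was -0.01. Among 18184 nuclear protein-coding genes 133 were higher and 610 lower with CPM, with a median of -0.26. This split turned to 423 higher and 254 lower, with a median of -0.03, under median-of-ratios scaling. Small nucleolar RNA genes, which guide the modification of ribosomal RNA, had a median of 0.91 over 91 genes with all libraries and 0.33 over 60 without. Genes that passed the filter through a single library had to differ, so no test is placed on these classes. No class held a gene past the corrected threshold with limma in either set.

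The most abundant transcripts of the deep libraries showed no difference beyond their spread. These genes were chosen by their mean level after the values had been seen. LOC111884730, the highest, had 5260, 17065 and 16162 CPM with UVB, against 11347, 13089 and 19997 CPM in visible light. Without UVB replicate 1 its log2 fold change was 0.21 (SE 0.64, 95% interval -1.24 to 1.66). LOC111908249 had 1346, 7885 and 5613 CPM against 11174, 7532 and 11502 CPM, a log2 fold change of -1.34 with all libraries (SE 0.94) and -0.57 without replicate 1 (SE 0.58). LOC111902831 was level in all 6 libraries, with 6101, 8292 and 5937 CPM against 5586, 8337 and 5645 CPM and a log2 fold change of 0.06 (SE 0.79). In LOC111896763 the shallow library stood at 217 CPM, against 7453 and 4678 CPM in the other UVB libraries and 2566 to 6122 CPM in visible light.

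All 34 genes that DESeq2 called with 6 libraries were higher with UVB, and 30 of them had their highest level in UVB replicate 1. In 25 of the 34, UVB replicate 2 was under 1 CPM. The calls included 3 organelle protein genes, rbcL, ndhG and the mitochondrial rps3, and 5 ribosomal RNA genes. In 5 of the 34 the groups did not overlap and UVB replicate 2 reached 4 CPM. They were LOC111912253 (log2 fold change 3.60, SE 0.75, DESeq2 adjusted p = 0.00264), LOC111916789 (3.35, SE 0.74, DESeq2 adjusted p = 0.00614), LOC111918521, LOC111876845 and LOC111914174 (1.87, SE 0.47, DESeq2 adjusted p = 0.0437). LOC111876845 had 85.7, 21.5 and 71.8 CPM with UVB, against 18.8, 12.6 and 9.40 CPM in visible light.

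Without UVB replicate 1, the 15 genes that DESeq2 called were all higher with UVB, and 14 had their highest level in UVB replicate 3. LOC111914072 led (log2 fold change 3.67, SE 0.67, DESeq2 adjusted p = 0.000804). The neighbours LOC111875850 and LOC111875849 were both among them, and LOC111875849 had 137 and 116 CPM in UVB replicates 2 and 3, against 69.4, 65.5 and 40.5 CPM in visible light. The 2 DESeq2 sets shared 5 genes. LOC111914174 was in both.

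With a minimum of 10 reads in both deep UVB libraries and 0 reads in all 3 visible light libraries, 0 genes remained. Genes below that minimum are not covered by this. LOC128132176, for example, had 0.23 and 0.41 CPM in UVB replicates 2 and 3 and 0 in visible light. In the other direction 2 of 31499 genes had at least 10 reads in each visible light library and 0 reads in all 3 UVB libraries. The 0 in UVB replicate 1 adds little for genes this low, since 1 read there is worth 1.11 CPM. The long noncoding RNA LOC122196891 had 0 reads with UVB, against 11, 24 and 14 reads in visible light, and the protein-coding gene LOC111902647 had 0 reads, against 10, 10 and 12. Both had 4, 6 and 6 reads with UVB 2.5 h. At day 0, also without UVB, LOC122196891 had 0, 0 and 17 reads and LOC111902647 had 26, 2 and 4, so that libraries without UVB were also at or near 0.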

How the data were processed

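The submitters' processing notes name STAR and featureCounts 1.6.3, and no role or STAR version. Genome build, annotation and use of strand: not given in the sources used here. For each gene the authors deposited normalized signal per gene, 6 libraries to a table, and log2 fold changes with adjusted p-values. In each deposited column all signal values were multiples of 1 step, and 100.0% of values were whole at a tolerance of 0.001, so that reads were recovered for 12 libraries and 31499 genes. Of these, 31046 had an entry in the RefSeq table of assembly Lsat_Salinas_v11, used for biotype, genome and gene order. No coordinate is printed, since the build is not known to match. No sequence table came with these genes.

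CPM was each column divided by its sum and scaled to the usual total. Groups were compared by limma 3.58.1 (trend option, R 4.3.3) on log2(CPM + 1), over genes with a mean of at least 1 CPM in the fitted libraries, with Benjamini-Hochberg adjustment. Fold changes on this scale understate changes of low genes. The edgeR 4.0.16 and DESeq2 1.42.0 tests were run on recovered reads as alternatives. Scripts were tested on simulated data. Named genes were the 5 higher and 5 lower with the smallest p, no overlap and at least 10 CPM, in each fit. The members and lists were chosen with earlier results of these data known. Wilson intervals and floors cover counting error only. The limma SEs and intervals of fold changes come from the scatter between libraries. In them the variance of each gene is drawn toward a trend fitted over all genes tested. An SE can therefore be larger or smaller than the scatter of that gene alone would give.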

Additional observations from a re-analysis of the deposited data

How the results depend on the processing

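With all 6 libraries, 0 calls were made by limma under TMM, median-of-ratios and nuclear protein-coding scaling, pseudocounts of 0.5 and 5 CPM, other filters, the replicate block, array weights (whose estimate did not converge fully), 12 or 11 Luna bionda libraries, and with any library left out, and by edgeR. DESeq2 called 34. The 220 genes under an unadjusted p of 0.05 became 617 with no filter, 621 and 561 with 12 and 11 libraries, 4726 with array weights, 593 with edgeR (911 without UVB replicate 1) and 965 with DESeq2. With single libraries left out they ranged from 38 (without visible light replicate 2) to 1311 (without UVB replicate 2). Without visible light replicate 1 they were 54, and without UVB replicates 1 and 3 they were 775 and 338. Without UVB replicate 1, limma called 0 under each alternative run and DESeq2 called 15. The 775 genes became 1290 with DESeq2, 515 with a filter at 10 CPM and 220 with replicate 1, and ranged from 182 (without UVB replicate 3) to 2278 (without visible light replicate 3) as further libraries were left out. The others were 1570 without UVB replicate 2, and 473 and 312 without visible light replicates 1 and 2. The cause of these moves was not tested.

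The replicate block gave 228 genes under the unadjusted p and 0 calls. Same-numbered libraries had deviations correlated at 0.206, 0.114 and -0.006, so the numbers are not taken to pair libraries. Of 320 fold changes of named genes under alternatives, 0 changed sign, and 7 passed the threshold, all with DESeq2. The named genes were chosen for no overlap, so other pseudocounts, other filters and leaving a library out could not change their sign. Those alternatives are therefore no check of direction. The sizes of the fold changes did move, and the values with UVB replicate 1 stand beside the genes in the report. The depth of UVB replicate 1 limits every value that includes it.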

Other observations

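UVB 7.5 h replicates 2 and 3 differed from each other in a set of genes that also set 1 day 0 library apart. These genes were chosen after their values had been seen. Of 11533 genes with a mean of at least 10 CPM in the deep libraries, 285 (2.47%) were over 4-fold apart between the 2 UVB libraries, 240 of them higher in replicate 3. The same measure was 0.529% to 4.43% between pairs of visible light libraries, so that its size was not particular to the UVB libraries. For 229 of these 240 (95.4%) day 0 replicate 2 was the highest of the 3 day 0 libraries, where this held for 31.4% of all 11533 genes. It held for 0 of the 45 genes that were higher in UVB replicate 2. LOC111906534 had 2.77 and 414 CPM in UVB replicates 2 and 3, 23.5, 11.1 and 1.24 CPM in visible light, and 5.87, 316 and 26.1 CPM at day 0. LOC122196853 had 0 and 107.3 CPM in UVB replicates 2 and 3, at most 2.77 CPM in visible light, and 0.96, 65.8 and 7.76 CPM at day 0. The Spearman correlation of UVB replicate 3 was highest with day 0 replicate 2 (0.934). Of the 15 genes that DESeq2 called without UVB replicate 1, 14 were highest in UVB replicate 3, and the part of this shared state in those calls was not tested.

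In a few genes all 6 Luna bionda libraries with UVB, at 2.5 h or 7.5 h per day, stood on 1 side of all 6 libraries without it. Under both CPM and median-of-ratios scaling 24 of 20359 genes (0.118%) were above and 77 (0.378%) below. The named genes LOC111914174, LOC111881580, LOC111885737 and LOC111902919 were among them. They had been chosen for no overlap between UVB 7.5 h and visible light, which is part of this condition. LOC111896054 was the most abundant of those above, with 285 to 638 CPM with UVB and 196 to 247 CPM without. LOC111898594 was the most abundant of those below, with 10.8 to 145 CPM with UVB and 163 to 237 CPM without. Of the 12 libraries the 3 with UVB 2.5 h, 1 with UVB 7.5 h and 1 of day 0 were of the lower tag series, and no test was made of this division, which was drawn after the data had been seen.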
